A study of Mus musculus with 36 samples.

Results

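Loss of Taf1 at day 7 of a macrophage culture was examined in 6 RNA-seq libraries of the 36 in the series, 3 from knockout cells and 3 from controls. The libraries were chosen by the genotype, day and course in their labels. Of the 24411 genes in the macrophage table, 11953 reached 1 TPM in at least 3 of the 24 libraries of that course and were tested. The series follows blood progenitors of control mice and of mice with a conditional Taf1 deletion through a macrophage or a granulocyte course, sampled at days 0, 3, 5 and 7. All 6 libraries began as haematopoietic stem and progenitor cells (HSPC) of bone marrow, with a genotype labelled WT in the controls and Taf1 KO in the knockout. Both genotypes grew for 3 days with stem cell factor (SCF) and interleukin-3 (IL-3), for 2 days with GM-CSF and M-CSF and for the final 2 days with M-CSF only. Each cytokine was at 50 ng/ml, in IMDM with 20% horse serum. The Cre driver, the time of deletion, the deleted part of the gene and the age and strain of the mice are not given in the sources used here. Whether replicates were taken from different mice is not given either. The p-values reflect only the spread between libraries of the same group, pooled over all fitted libraries. These were the 24 of the macrophage course, or the 12 of day 7 for the difference between the courses. That spread may be technical. TPM is a length-corrected share of a library's transcripts, and the number of reads behind it is unknown.

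TFIID, of which TAF1 is the biggest protein, recognises core promoters and helps to assemble RNA polymerase II there. It is built from the TATA-binding protein TBP and a set of TBP-associated factors, the TAFs. In marrow culture M-CSF, acting through the receptor CSF1R, carries myeloid progenitors through a monocyte stage to macrophages. Maturing macrophages gain scavenger receptors and lysosomal enzymes, while the granule proteins of neutrophil precursors and the surface proteins of monocytes are lost.

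Macrophage RNA was present in every library, but so was RNA of other myeloid cells. All 9 macrophage markers were detected, with a summed level of 2221 to 3321 TPM in controls and 2417 to 2537 TPM in knockout. The 6 neutrophil markers in the table summed to 3285 to 8080 TPM in controls and 1303 to 2275 TPM in knockout, and 4 granulocyte progenitor markers to 259 to 1095 TPM and 313 to 956 TPM. Markers of mast cells and basophils summed to 72.3 to 508 TPM and 309 to 671 TPM, and those of megakaryocytes to 387 to 420 TPM and 1806 to 2251 TPM. Pf4 alone made up most of the megakaryocyte sum, at 379.6, 365 and 363 TPM in controls and 1726, 2212 and 2121 TPM in knockout. Markers of lymphoid cells stayed at or under 0.17 TPM in sum, with Cd3e listed at 0. Red cell markers summed to 1.23 to 2.53 TPM in controls and 0.14 to 0.42 TPM in knockout. Of these Hba-a1 reached 2.48 TPM in a control, while Hbb-bs and Alas2 were listed at 0. Stromal and endothelial markers summed to 1.56 to 4.29 TPM in controls and 1.71 to 2.69 TPM in knockout. Of these Kdr reached 3.82 TPM in a control, while Col3a1 was listed at 0. In bulk RNA, fewer cells of a type and less RNA per cell cannot be told apart.

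The replicates were not evenly spaced. Control replicates 1 and 2 were closer to each other (Pearson's r across genes of 0.998) than to replicate 3 (0.993 and 0.994), and knockout replicates 2 and 3 were closer to each other (0.998) than to replicate 1 (0.995 and 0.994). These pairs, and the same pairs of the granulocyte course, are called near-identical below for their r only. TPM was unequal for 14681 genes between the 2 controls and for 15079 between the 2 knockout libraries, so they are not copies. Control replicate 3 had the least neutrophil and granulocyte progenitor RNA of the controls, and knockout replicate 1 the most of the knockout libraries. The share of TPM in short structural RNAs was 10.2% to 10.8% in controls, 9.5% in knockout replicate 1 and 4.43% and 4.97% in knockout replicates 2 and 3. Results that rest on these libraries are given with each library's value.

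Expression differed between the genotypes across much of the transcriptome. Of 11953 genes, 4769 (39.9%) passed an adjusted p of 0.05 in limma, 3274 higher (27.4%) and 1495 lower (12.5%) in knockout. At least 2-fold differences among them numbered 254 higher (2.12%) and 299 lower (2.5%). The libraries of the genotypes did not overlap for 6121 genes (51.2%). The direction of small differences depended on scaling. The median log2 difference of all genes was 0.12 in TPM as deposited and -0.01 after median-of-ratios scaling, which gave 2220 higher and 2574 lower. List counts after that scaling follow the counts in TPM as deposited. With control replicates 1 and 2 averaged into 1 library and knockout replicates 2 and 3 likewise, 2362 genes passed.

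**Figure D1:**
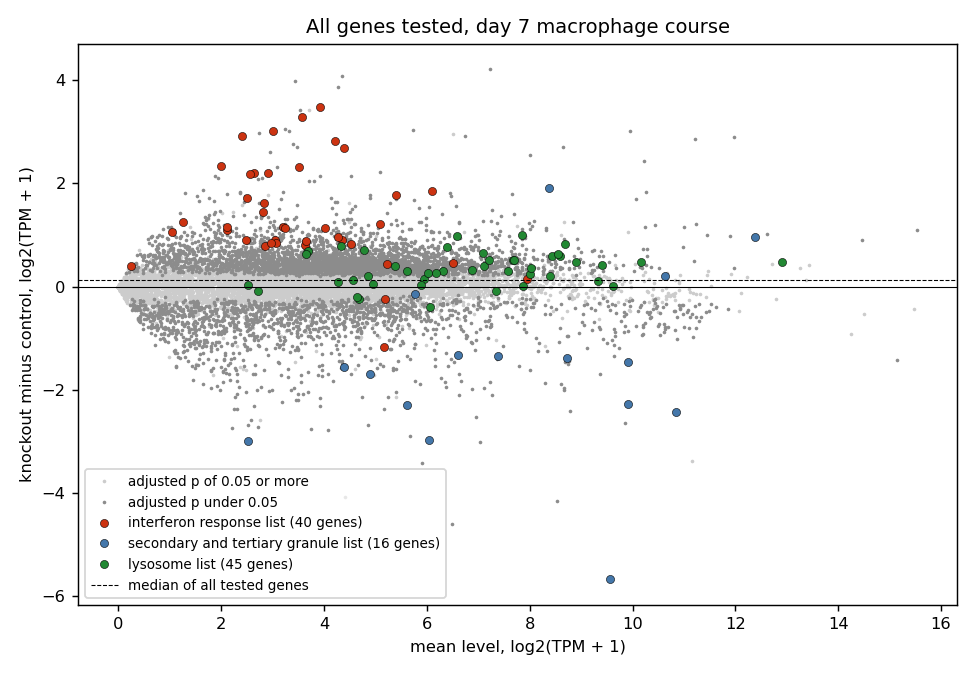
Log2 difference between knockout and control (vertical) against mean level, log2(TPM + 1) (horizontal), for the 11953 tested genes, with 3 gene lists in colour. Most of the 40 interferon genes lie above 0 and most of the 16 granule genes below, while the dashed line marks the median of all genes, 0.12.

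Taf1 itself was lower in every knockout library. It lies on chromosome X (mm10, chrX:101532734-101601789, plus strand). Taf1 was 12.98, 13.6 and 13.1 TPM in controls and 6.76, 7.23 and 7.57 TPM in knockout, a log2 difference of -0.80 ± 0.08 (SE, adjusted p = 2.86e-07). The groups did not overlap. A TPM value covers all exons of a gene, so it does not show which part of the transcript remained.

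Other TFIID subunits were mostly at higher levels in the knockout. Of 16 tested subunits 9 rose and 2, Taf1 and Taf8, fell (8 and 2 after scaling), with a median log2 difference of 0.43 against 0.12 for all genes. Taf13, a histone-fold subunit that pairs with TAF11, was 18.5, 17.6 and 21.6 TPM in controls and 48.8, 51.7 and 58.95 TPM in knockout (log2 1.42 ± 0.14, adjusted p = 1.75e-07). Taf12, the partner of TAF4, was 33.99, 31.6 and 34.1 TPM and 76.4, 81.3 and 84.3 TPM (1.25 ± 0.09, adjusted p = 3.72e-09). Both subunits were more than 2-fold higher, and every knockout library stood above every control. Taf6 rose by 0.84, Taf4b by 0.70, Taf10 by 0.49, Taf5 by 0.44, Taf11 by 0.44 and Taf4a by 0.41. The ninth, Taf2, rose by 0.50 (adjusted p = 0.0329) and missed the threshold when any 1 of the 6 libraries was left out and after scaling (0.35). Taf8 was 8.09, 9.66 and 10.7 TPM and 6.53, 7.71 and 7.44 TPM (-0.34 ± 0.11, adjusted p = 0.0155), the other fall, which missed the threshold without control replicate 2 (-0.33), control replicate 3 (-0.26) or knockout replicate 1 (-0.28). Tbp, at 14.7, 14.04 and 14.3 TPM and 16.2, 16.97 and 15.8 TPM, differed by 0.18 and did not pass (adjusted p = 0.192).

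Other parts of the transcription machinery were counted in the same way. Of 17 other general transcription factors 10 rose and 0 fell (9 and 0 after scaling, and 0 lower in limma also at an unadjusted p of 0.05). Gtf2a1, a subunit of TFIIA, was 15.5, 15.2 and 19.2 TPM in controls and 28.5, 38.2 and 40.5 TPM in knockout (1.05 ± 0.16, adjusted p = 3.99e-05). RNA polymerase II subunits had 7 of 13 higher and 0 lower in limma (4 and 0 after scaling, and 0 lower at an unadjusted p of 0.05), among them the catalytic subunit Polr2a, with 11.7, 12.2 and 12.6 TPM and 22.9, 28.2 and 25.7 TPM (1.01, adjusted p = 0.0106). Mediator, the complex that links activators to the polymerase, had 11 of 30 higher and 2 lower (5 and 3 after scaling, when 2220 of all 11953 genes were higher), and the 11 were 5 or 6 without control replicate 1, control replicate 2, knockout replicate 2 or knockout replicate 3. Pause release and elongation factors had 11 of 19 higher and 1, Larp7, lower (7 and 1 after scaling), and 7 higher without control replicate 1 or knockout replicate 3. Hexim1, which holds the elongation kinase P-TEFb inactive, was 11.6, 12.8 and 9.98 TPM and 23.8, 25.97 and 25.6 TPM (1.07 ± 0.10, adjusted p = 1.21e-07). Larp7, which stabilises the 7SK RNA that HEXIM1 binds, was 28.4, 30.8 and 35 TPM and 17.01, 16.96 and 17.7 TPM (-0.82 ± 0.13, adjusted p = 8e-05). Hexim1 was higher and Larp7 lower in every knockout library.

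**Figure D2:**
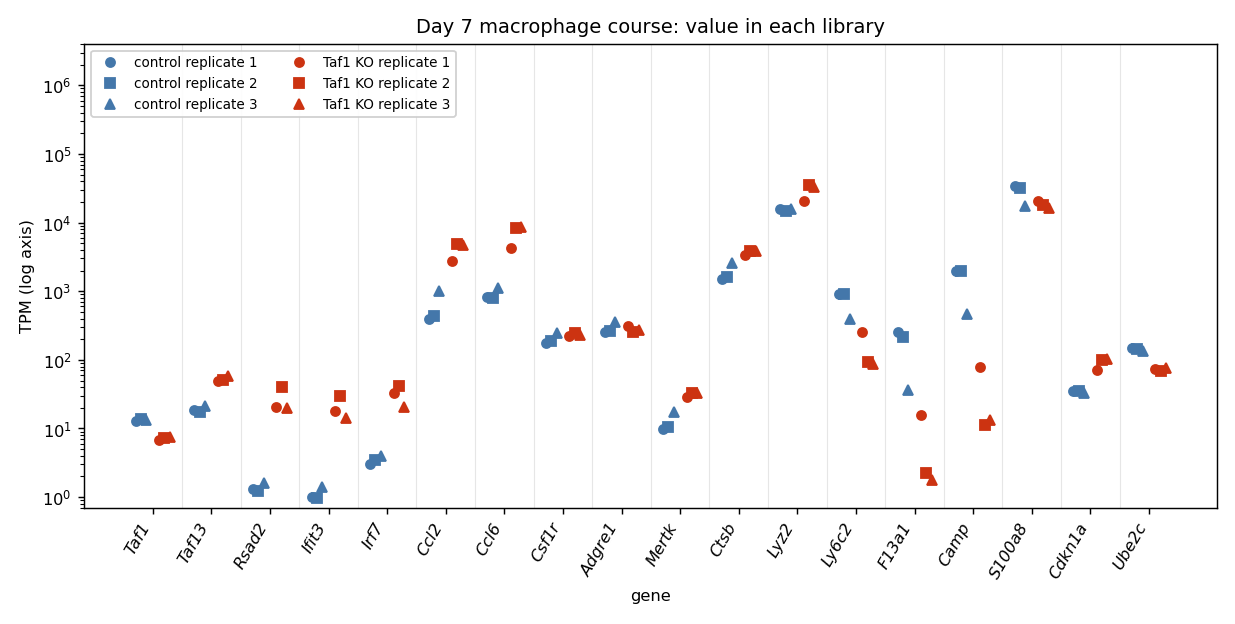
TPM of 18 genes (log axis) in each of the 6 libraries, blue for controls and red for knockout, with a marker shape per replicate. Taf1, Rsad2, Ifit3, Ccl6 and Camp separate the genotypes fully, whereas Adgre1, Csf1r and S100a8 overlap, and control replicate 3 lies nearer to the knockout for F13a1, Ly6c2 and Camp.

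Genes of the interferon response gave the most uniform rise of any list. Interferons are secreted antiviral signals that induce these genes. Of 40 tested genes 37 rose and 1 fell (36 and 1 after scaling), against 27.4% of all genes higher, with a median log2 difference of 1.14. Rsad2, the antiviral enzyme viperin, was 1.31, 1.23 and 1.62 TPM in controls and 20.4, 39.96 and 20.1 TPM in knockout (3.47 ± 0.20, adjusted p = 2.88e-10). Ifit3 was 0.99, 0.97 and 1.42 TPM and 18.1, 29.4 and 14.2 TPM (3.29 ± 0.18, adjusted p = 2.81e-10), and its near copy Ifit3b, whose reads may be shared with it, 0.19, 0.15 and 0.22 TPM and 6.33, 12.8 and 6.09 TPM. Ifit1, whose protein binds viral RNA ends, was 0.56, 0.71 and 0.8 TPM and 10.8, 20.4 and 9.0 TPM (3.01 ± 0.21, adjusted p = 2.7e-09). In all these genes the knockout libraries lay far above the controls, and replicate 2 was the highest of them.

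Regulators and sensors of the pathway rose as well. Irf7, the transcription factor that amplifies interferon production, was 3.03, 3.42 and 3.99 TPM and 33.4, 41.4 and 20.3 TPM (2.82 ± 0.18, adjusted p = 9.44e-10). Stat2 rose by 1.14, Irf9 by 0.90, and the RNA sensors Ifih1 and Ddx58 by 0.91 and 0.80. The exceptions, named after their values were seen, were Samd9l, which fell by 1.17 (adjusted p = 0.000283), Ifi27l2a (-0.24, adjusted p = 0.541) and Ifitm3. Ifitm3, the member with the highest TPM, was 256, 252 and 193 TPM and 241, 283 and 247 TPM and did not pass (0.14, adjusted p = 0.486). The number of genes that rose hardly moved without any single library (36 or 37 genes), with the near-identical replicates averaged (35), without both of knockout replicates 2 and 3 (33) and without control replicates 1 and 2 and knockout replicate 1 (33).

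Promoters of 3 of these genes, 200 bases before the start in RefSeq on GRCm38.p6, are shown because the sequence elements of this pathway are known. Capitals mark GAAA, any 2 bases and GAAA, or the reverse complement, the core of the interferon-stimulated response element. They are Rsad2 at chr12:26456453-26456652 (minus strand), Ifit3 at chr19:34583329-34583528 (plus) and Ifit1 at chr19:34640689-34640888 (plus).
Rsad2: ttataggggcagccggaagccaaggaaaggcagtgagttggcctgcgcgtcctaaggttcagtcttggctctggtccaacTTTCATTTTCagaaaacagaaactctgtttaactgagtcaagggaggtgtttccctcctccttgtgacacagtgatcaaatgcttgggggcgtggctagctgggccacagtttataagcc
Ifit3: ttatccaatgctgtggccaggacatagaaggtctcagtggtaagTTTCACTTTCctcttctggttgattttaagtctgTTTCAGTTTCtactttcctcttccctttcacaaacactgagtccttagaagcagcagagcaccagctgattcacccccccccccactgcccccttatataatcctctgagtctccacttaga
Ifit1: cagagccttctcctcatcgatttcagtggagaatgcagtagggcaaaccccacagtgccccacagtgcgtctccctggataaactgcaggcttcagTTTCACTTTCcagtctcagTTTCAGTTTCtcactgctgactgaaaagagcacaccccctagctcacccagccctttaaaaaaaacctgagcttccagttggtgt
The element lay 120 to 111 bases before the start of Rsad2, 156 to 147 and 122 to 113 before that of Ifit3, and 104 to 95 and 85 to 76 before that of Ifit1, each on the strand opposite to the gene. Within 200 bases on either strand, 13 of 30 interferon genes with a promoter entry held it (43.3%), against 230 of the 9120 tested genes with an entry (2.52%) and 746 of all 32851 entries (2.27%). Of the 230 genes 90 rose (39.1%) and 21 fell (9.13%), with a median of 0.23, and of the 8890 without it 2461 rose (27.7%) and 1046 fell (11.8%), with a median of 0.13. A match is a description of the letters and not a binding site.

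Chemokines that attract monocytes rose, several of them to high levels. The list of monocyte genes and chemokines had 12 of 21 genes higher and 5 lower (12 and 6 after scaling), with a median of 1.11. All 12 that rose code for chemokines, and the 5 that fell were Ly6c2, Ccr2, F13a1, Vcan and Ms4a4c. Ms4a4c missed the threshold without control replicate 1, control replicate 2, knockout replicate 2 or knockout replicate 3. Ccl12 was 6.87, 7.29 and 48.1 TPM in controls and 209, 297 and 319 TPM in knockout (4.21 ± 0.47, adjusted p = 1.41e-06). Ccl2, the main ligand of CCR2, was 399, 440.0 and 997 TPM and 2796, 4939 and 4769 TPM (2.85 ± 0.26, adjusted p = 1.26e-07). Ccl7 was 120.5, 139 and 543 TPM and 1308, 1897 and 1940.3 TPM (3.01, adjusted p = 2.29e-06). Control replicate 3 held more of these transcripts than the other controls but less than any knockout library. Ccl6 was 814, 809 and 1129 TPM and 4205, 8269.6 and 8754 TPM (2.89 ± 0.24, adjusted p = 3.62e-08), and Ccl9 502, 479 and 522 TPM and 1284, 1775 and 1881 TPM (1.70). Knockout replicate 1 was the lowest knockout library for both. Ccl5, a T cell-attracting chemokine, was 0.73, 0.16 and 2.09 TPM and 10.01, 21.3 and 29.6 TPM (3.41, adjusted p = 7.07e-06). The Ccl genes lie in clusters of related copies, so how reads were shared among them is uncertain.

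Several dendritic cell genes rose from low levels. Of 14 tested 9 rose and 1 fell (8 and 1 after scaling), with a median of 0.69. Ccl17, a ligand of CCR4, was 0.17, 0.51 and 0 TPM in controls, 1 of them listed at 0, and 9.75, 23.9 and 24.6 TPM in knockout (3.97 ± 0.35, adjusted p = 7.69e-08). Ccl22, the other CCR4 ligand, was 1.12, 1.01 and 0.72 TPM and 9.95, 15.7 and 21.9 TPM (3.05, adjusted p = 2.43e-08). Ccr7, the receptor that guides dendritic cells to lymph nodes, was 0.29, 0.49 and 0.51 TPM and 5.84, 12.5 and 14.4 TPM (2.98, adjusted p = 8.32e-08). These 3 genes were near 0 TPM in controls and higher in every knockout library. Of the dendritic cell markers, Zbtb46 was 0.23, 0.25 and 0.12 TPM and 0.63, 0.82 and 1.03 TPM (0.60, adjusted p = 0.00375) and Cd209a 0.13, 0.11 and 0.26 TPM and 0.32, 0.46 and 0.72 TPM (adjusted p = 0.137). The summed level of 7 dendritic cell markers was 49.6 to 86.0 TPM in controls and 79.3 to 131 TPM in knockout, and the part of such cells was not tested. Of 10 MHC class II genes Cd74, the invariant chain, rose and H2-DMb1 fell, the latter not without knockout replicate 2, with Cd74 at 81.4, 79.9 and 132 TPM and 189.6, 254 and 307 TPM (1.36, adjusted p = 0.0189), a rise that missed the threshold without control replicate 1 (1.25), control replicate 2 (1.23), knockout replicate 2 (1.33) or knockout replicate 3 (1.20).

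The promoters of the other genes at the head of the ranking were read in the same way, with TATAAA, the TATA box core on the gene's own strand, and the paired GAAA motif in capitals. Ccl12 lies at chr11:82101645-82101844 (plus) and Ccl17 at chr8:94810253-94810452 (plus), and of the strongest falls Camp at chr9:109849457-109849656 (minus), F13a1 at chr13:37050245-37050444 (minus, the first of 2 entries) and Asprv1 at chr6:86627974-86628173 (plus).
Ccl12: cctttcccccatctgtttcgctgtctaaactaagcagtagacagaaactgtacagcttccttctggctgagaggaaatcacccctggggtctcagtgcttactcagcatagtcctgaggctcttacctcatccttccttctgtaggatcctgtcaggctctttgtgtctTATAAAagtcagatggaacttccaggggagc
Ccl17: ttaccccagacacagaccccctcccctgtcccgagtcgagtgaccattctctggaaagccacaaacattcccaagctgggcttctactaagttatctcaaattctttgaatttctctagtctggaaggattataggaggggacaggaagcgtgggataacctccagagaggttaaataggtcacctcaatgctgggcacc
Camp: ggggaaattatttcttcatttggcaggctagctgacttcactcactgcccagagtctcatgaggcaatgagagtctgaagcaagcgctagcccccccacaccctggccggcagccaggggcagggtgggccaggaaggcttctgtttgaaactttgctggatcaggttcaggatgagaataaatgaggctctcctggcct
F13a1: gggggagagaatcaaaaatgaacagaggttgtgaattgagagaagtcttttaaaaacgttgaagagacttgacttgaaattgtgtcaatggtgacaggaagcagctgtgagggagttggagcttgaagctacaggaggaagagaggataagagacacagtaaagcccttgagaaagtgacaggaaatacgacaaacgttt
Asprv1: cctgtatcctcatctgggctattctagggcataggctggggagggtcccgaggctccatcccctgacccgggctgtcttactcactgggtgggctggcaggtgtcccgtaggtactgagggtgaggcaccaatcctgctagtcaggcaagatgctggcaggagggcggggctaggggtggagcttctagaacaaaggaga
Ccl12 held TATAAA 31 to 26 bases before its start, and the other 4 held neither run of letters in this window. Between 20 and 45 bases before a start, 128 of the 9120 tested genes with an entry held TATAAA (1.4%). Of these 128 genes 40 rose (31.2%) and 14 fell (10.9%), with a median of 0.14, and of the other 8992 genes 2511 rose (27.9%) and 1053 fell (11.7%), with a median of 0.13. Changes of at least 2-fold were counted in 18 (14.1%) and 6 (4.69%) of the 128 and in 169 (1.88%) and 188 (2.09%) of the 8992.

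Genes of macrophage identity moved in both directions. Of 26 tested 9 rose and 5 fell (8 and 5 after scaling), with a median of 0.00. All genes also moved in both directions, 27.4% higher and 12.5% lower, with a median of 0.12. After scaling 2220 of the 11953 genes were higher and 2571 lower. Csf1r, the M-CSF receptor, was 178, 186 and 249 TPM in controls and 225, 249.7 and 234 TPM in knockout (0.22 ± 0.11, adjusted p = 0.115). Adgre1, which codes for F4/80, was 256, 263 and 356 TPM and 309.9, 256 and 272 TPM (-0.05 ± 0.15, adjusted p = 0.82). Neither passed, and the groups overlapped for both, although Csf1r passed without control replicate 3 (0.37, adjusted p = 0.00551). Mertk, the receptor for the uptake of dying cells, was 9.96, 10.4 and 17.5 TPM and 29.2, 32.4 and 33.1 TPM (1.30 ± 0.17, adjusted p = 1.01e-05). Mrc1, the mannose receptor CD206, was 122, 128 and 250.2 TPM and 416, 271 and 349.9 TPM (1.11, adjusted p = 0.00211). Both Mertk and Mrc1 were higher in every knockout library than in any control.

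Further genes of the macrophage identity and lipid lists went in either direction. Clec7a, the fungal glucan receptor dectin-1, was 43.1, 35.99 and 33.8 TPM and 101, 149 and 156 TPM (1.80 ± 0.18, adjusted p = 3.98e-07). Cd36, a receptor for oxidised lipoprotein, was 841, 813 and 866 TPM and 1978, 1831 and 1990.2 TPM (1.20, adjusted p = 0.00117). Lyz2, lysozyme M, was 15613, 14788 and 15879 TPM and 20519.8, 34946 and 33048 TPM (0.90, adjusted p = 0.0164), with knockout replicate 1 nearest to the controls, and missed the threshold without control replicate 2 (0.87), knockout replicate 2 (0.76) or knockout replicate 3 (0.80). Folr2, a folate receptor of resident macrophages, was 5.09, 5.63 and 5.18 TPM and 1.03, 0.45 and 0.33 TPM (-1.998 ± 0.13, adjusted p = 1.51e-09). Fabp4, a fatty acid carrier, was 93.2, 106 and 153 TPM and 51.7, 41.5 and 46.2 TPM (-1.29, adjusted p = 0.000574). Cd68, a lysosomal membrane protein, was 927, 975 and 1387 TPM and 765, 699.5 and 708 TPM (-0.57, adjusted p = 0.0258), and missed the threshold without control replicate 3 (-0.39), knockout replicate 2 (-0.55) or knockout replicate 3 (-0.56). These last 3 were lower in every knockout library. Of the lineage transcription factors, Spi1 (PU.1) was 190.1, 205 and 203 TPM and 216, 209 and 215 TPM and Irf8 67.6, 68.3 and 51.7 TPM and 70.8, 62.1 and 58.3 TPM, neither passing (adjusted p = 0.424 and 0.838). Cebpe, a factor of granule genes, was 75.8, 82.4 and 31.4 TPM and 30.7, 16.4 and 18.04 TPM (-1.43, adjusted p = 0.000814).

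About as many lysosomal genes rose as did not pass. Of 45 tested 23 rose, 22 did not pass and 0 fell in limma, with a median of 0.32 (16 and 3 after scaling, and 1 lower at an unadjusted p of 0.05). Cathepsins, the lysosomal proteases, had 7 of 14 higher and 1 lower (3 and 1 after scaling), and without control replicate 1, control replicate 2, knockout replicate 2 or knockout replicate 3 the 7 were 3 or 4. The share of all genes that were higher was 27.4%, and after scaling 2220 of 11953 were higher. The cathepsin share after scaling was thus near that of all genes. Ctsl was 1537, 1466 and 1353 TPM in controls and 2907, 3436 and 3771 TPM in knockout (1.21 ± 0.21, adjusted p = 0.000164). Ctsb was 1503, 1608 and 2577 TPM and 3341, 3839 and 3898 TPM (1.001 ± 0.17, adjusted p = 0.000172). Ctsd, at the highest TPM of the 4 named here, was 7749, 8394 and 12703 TPM and 11272, 13231 and 13020.1 TPM and did not pass (adjusted p = 0.1). Control replicate 3 lay among the knockout values of Ctsd, and without it the gene passed (0.63, adjusted p = 0.013). Ctsk, the collagen-degrading protease of osteoclasts, was 64.4, 57.8 and 60.7 TPM and 34.3, 23.7 and 29.6 TPM (-1.05, adjusted p = 0.00112), below every control. With the near-identical replicates averaged 9 of the 45 lysosomal genes rose, without control replicates 1 and 2 and knockout replicate 1 the number was 6, and without both of knockout replicates 2 and 3 it was 0 in limma.

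Lipid genes and growth factor genes gave further differences. The genes of lipid uptake, storage and efflux had 5 of 21 higher and 3 lower (4 and 4 after scaling), and 3 higher without control replicate 2 or knockout replicate 2. These shares were near those of all genes, 27.4% higher and 12.5% lower. Lipid-associated macrophage genes had 8 of 17 higher and 2 lower (6 and 2 after scaling), and 5 higher without knockout replicate 2 or knockout replicate 3. Spp1, osteopontin, was 3861, 3848 and 4500.1 TPM and 5619.9, 10929 and 9005 TPM (1.02, adjusted p = 0.00245). Apoe, the lipoprotein of cholesterol export, was 138, 148 and 181 TPM and 492, 381 and 284 TPM (1.28 ± 0.48, adjusted p = 0.0387), while its neighbour Apoc2 was 66.8, 64.4 and 55.9 TPM and 31.4, 28.9 and 25.6 TPM (-1.10, adjusted p = 0.000169). Apoe was thus higher and Apoc2 lower in every knockout library, but Apoe missed the threshold without control replicate 1 (1.19), control replicate 2 (1.25), knockout replicate 1 (1.08) or knockout replicate 2 (1.27) and after scaling (1.12). Csf2rb, the common beta chain of the GM-CSF and IL-3 receptors, was 90.7, 85.1 and 74.7 TPM and 152, 382 and 417 TPM (1.78 ± 0.25, adjusted p = 1.95e-05). Csf1, which codes for M-CSF, was 7.4, 7.79 and 17.7 TPM and 27.3, 72.7 and 65.04 TPM (2.21, adjusted p = 1.67e-05). Thbs1, a matrix protein, was 17.9, 16.3 and 25.9 TPM and 53.6, 262 and 259.8 TPM (2.91, adjusted p = 0.000425). For these 3 knockout replicate 1 lay between the controls and the other 2 knockout libraries.

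Granule and monocyte genes held the strongest falls. Of 16 secondary and tertiary granule genes 12 fell and 1 rose (12 and 1 after scaling), against 12.5% of all genes lower, with a median of -1.51. Camp, the antimicrobial peptide cathelicidin, was 1959, 1974 and 469 TPM in controls and 77.8, 11.2 and 13.2 TPM in knockout (-5.67 ± 0.76, adjusted p = 1.07e-05). Ngp, neutrophilic granule protein, was 3823, 3774 and 1611 TPM and 1075, 362 and 372 TPM (-2.44 ± 0.75, adjusted p = 0.0143). Cd177, a neutrophil surface protein, was 135, 145 and 61.6 TPM and 29.1, 10.2 and 6.69 TPM (-2.97 ± 0.53, adjusted p = 0.000207). Control replicate 3 lay between the other controls and the knockout for all 3 genes, and Ngp missed the threshold without control replicate 1 (-2.23), control replicate 2 (-2.24), knockout replicate 2 (-2.17) or knockout replicate 3 (-2.19). Mmp8, neutrophil collagenase, went the other way, 121, 109 and 150.2 TPM and 215, 728 and 667 TPM (1.90, adjusted p = 0.000524). Of the 6 neutrophil markers 2 rose and 4 fell, also after scaling. Neutrophil receptors and S100 genes had 4 of 19 higher and 4 lower (3 and 4 after scaling), with a median of -0.04. Of all genes 27.4% were higher and 12.5% lower. Of 7 primary granule genes Elane and Prss57 fell, and 0 rose in limma, also at an unadjusted p of 0.05. Elane, neutrophil elastase, was 180.2, 173 and 34.4 TPM and 72.8, 15.2 and 15.1 TPM (-1.96, adjusted p = 0.00906), and neither of the 2 passed without control replicate 1, control replicate 2, knockout replicate 2 or knockout replicate 3. Mpo, myeloperoxidase, was 327, 322 and 75.9 TPM and 320.4, 99.5 and 113 TPM and did not pass (-0.38, adjusted p = 0.508), except lower without control replicate 3 (-1.08). The groups overlapped for both Elane and Mpo. S100a8, a subunit of calprotectin, was 34381, 32133 and 17217 TPM and 20745, 18024 and 16500.5 TPM and did not pass (adjusted p = 0.367). Of the 16 secondary and tertiary granule genes, 8 were lower without control replicate 1, control replicate 2, knockout replicate 2 or knockout replicate 3, 5 with the near-identical replicates averaged, 4 without control replicates 1 and 2 and knockout replicate 1, and 2 without both of knockout replicates 2 and 3.

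All 3 monocyte markers fell. Ly6c2, the surface marker of inflammatory monocytes, was 897, 899 and 398 TPM in controls and 255, 92.4 and 87.6 TPM in knockout (-2.42 ± 0.35, adjusted p = 2.92e-05). F13a1, coagulation factor XIII A, was 258, 218 and 36.95 TPM and 15.9, 2.23 and 1.78 TPM (-4.60 ± 0.58, adjusted p = 5.89e-06). Ccr2, the receptor of CCL2, was 94.2, 79.2 and 21.6 TPM and 24.4, 14.96 and 14.1 TPM (-1.61, adjusted p = 0.00114). Ccr2 alone overlapped, through control replicate 3. Further strong falls left no overlap. F7, coagulation factor VII, was 109, 108 and 111 TPM and 12.1, 7.76 and 8.55 TPM (-3.42 ± 0.27, adjusted p = 1.16e-08). Gdf3, a TGF-beta family ligand, was 8.07, 6.93 and 6.28 TPM and 0.24, 0.24 and 0.14 TPM (-2.74 ± 0.18, adjusted p = 9.37e-10). Asprv1, a retroviral-like protease of skin and neutrophils, was 43.01, 45.6 and 26.5 TPM and 4.79, 0.62 and 0.27 TPM (-4.07 ± 0.35, adjusted p = 4.79e-08). In these genes all controls stood far above all knockout libraries.

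Some mast cell genes and single genes of megakaryocytes and progenitors were higher in the knockout. Of 20 mast cell and basophil genes 10 rose and 0 fell (10 and 0 after scaling, and 0 lower in limma at an unadjusted p of 0.05), and 4 rose when only these 6 libraries were fitted. Cpa3, a mast cell carboxypeptidase, was 58.2, 62.8 and 11.6 TPM in controls and 168, 71.3 and 151 TPM in knockout (1.76, adjusted p = 0.0041), and Tpsb2, a tryptase, 1.79, 2.26 and 0.53 TPM and 12.1, 5.95 and 10.7 TPM (2.09, adjusted p = 1.07e-06). Control replicate 3 was the lowest for both, and without it the difference of Cpa3 was 0.9997. Prss34 and Mcpt8, the list members of highest TPM, overlapped between the genotypes. Prss34 was 208, 236 and 28.8 TPM in controls and 341, 149.6 and 332 TPM in knockout. Mcpt8 was 174, 181 and 28.5 TPM and 97.7, 62.1 and 123 TPM. Csf1, given above, was also a member of this list. Megakaryocyte and platelet genes had 4 of 20 higher and 1 lower (3 and 2 after scaling), a smaller share than the 27.4% of all genes, and 2 higher without control replicate 3, knockout replicate 1 or knockout replicate 3. Pf4, platelet factor 4, was 379.6, 365 and 363 TPM and 1726, 2212 and 2121 TPM (2.44 ± 0.31, adjusted p = 5.32e-06), while Gp9, a platelet membrane protein, stayed under 5 TPM in all 6. Cd34, a progenitor surface protein, was 12.9, 11.9 and 9.58 TPM and 31.1, 28.7 and 29.9 TPM (1.32 ± 0.17, adjusted p = 9.07e-06), and Kit, the SCF receptor, 4.15, 4.26 and 7.08 TPM and 3.67, 4.1 and 4.77 TPM, which did not pass (adjusted p = 0.351). Stem and progenitor genes as a list had 6 of 23 higher and 1 lower (6 and 2 after scaling), with a median of 0.07, near the share of all genes. Meis1, a stem cell homeobox factor, was 3.48, 3.09 and 3.0 TPM and 7.97, 7.68 and 9.04 TPM (1.14, adjusted p = 5.39e-05). The part of other cell types in these differences was not tested.

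**Figure D3:**
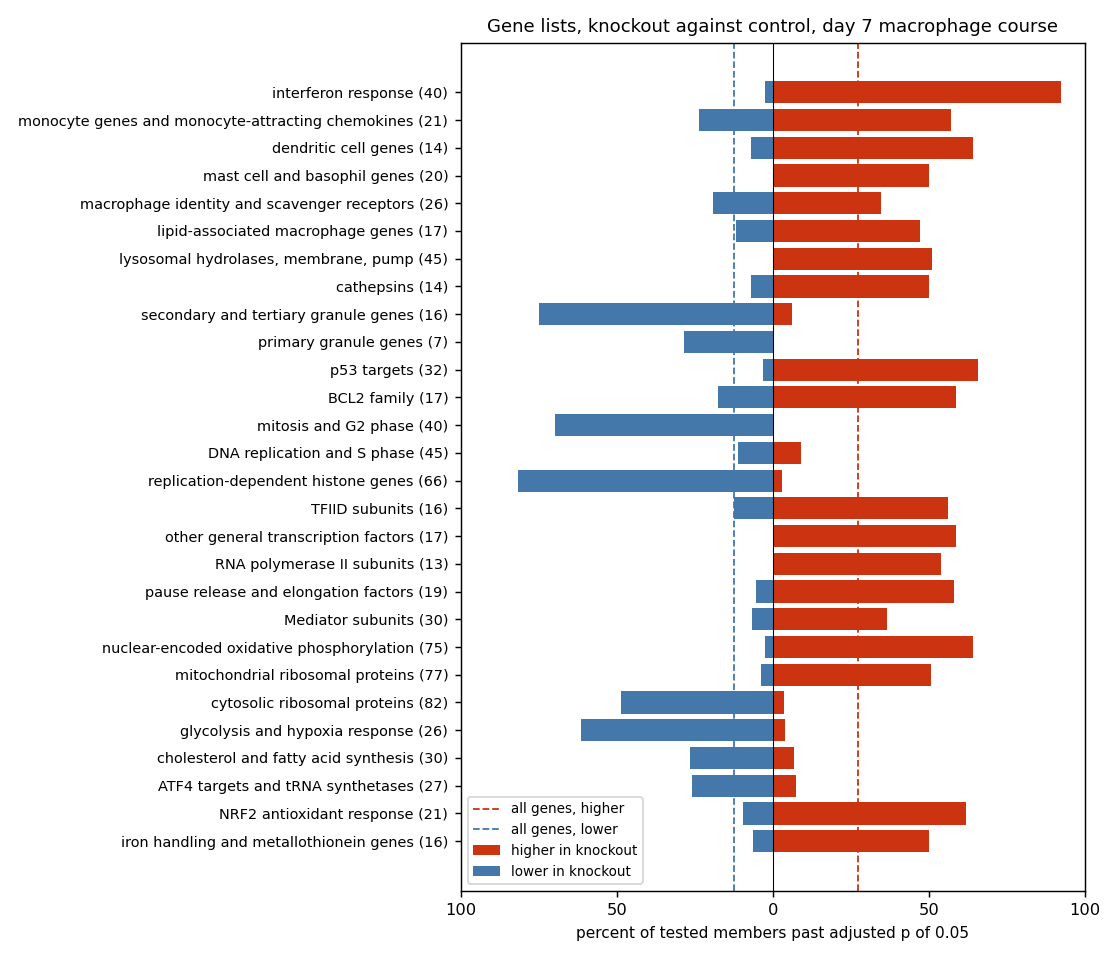
Percent of tested members of 28 gene lists past an adjusted p of 0.05, higher in knockout to the right and lower to the left, with the number tested in brackets and the shares of all genes (27.4% and 12.5%) as dashed lines. Interferon genes reach furthest to the right, and histone, granule and mitosis genes furthest to the left.

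Most p53 targets rose and most mitosis genes fell. Of 32 p53 targets 21 rose and 1 fell (18 and 2 after scaling), with a median of 0.68. Cdkn1a, the cell cycle inhibitor p21, was 35.6, 35.2 and 33.3 TPM in controls and 71.2, 97.9 and 102 TPM in knockout (1.34 ± 0.18, adjusted p = 1e-05). Ccng1, cyclin G1, was 87.4, 85.9 and 121 TPM and 192, 248 and 250.0 TPM (1.23 ± 0.13, adjusted p = 4.62e-07). Pmaip1, the death protein NOXA, was 8.46, 7.68 and 7.62 TPM and 14.96, 32.1 and 30.5 TPM (1.52, adjusted p = 1.58e-05), and Mdm2, the p53 ubiquitin ligase, 49.7, 55.6 and 58.9 TPM and 78.8, 131 and 136 TPM (1.02, adjusted p = 4.71e-05). All 4 were higher in every knockout library, with replicate 1 the lowest. In the BCL2 family, which sets the threshold of apoptosis, 10 of 17 rose and 3 fell (6 and 3 after scaling), and 6 rose without control replicate 1, knockout replicate 2 or knockout replicate 3. Mcl1, a survival protein, was 261, 237 and 225 TPM and 152, 162 and 163 TPM (-0.60, adjusted p = 0.000233). Bcl2a1b, a survival protein with close copies that may share its reads, was 201, 187 and 212 TPM and 459, 421 and 437 TPM (1.13, adjusted p = 0.00109).

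Mitosis and G2 genes had 28 of 40 lower and 0 higher (37 and 0 after scaling, and 0 higher in limma at an unadjusted p of 0.05), with a median of -0.46. Ube2c, which serves the anaphase-promoting complex, was 150.0, 144 and 133 TPM in controls and 73.6, 69.5 and 76.5 TPM in knockout (-0.95 ± 0.15, adjusted p = 5.96e-05). Mki67, the proliferation marker, was 91.1, 102 and 102 TPM and 68.1, 67.3 and 78.3 TPM (-0.46, adjusted p = 0.0382), and missed the threshold without any 1 library but knockout replicate 3. Both were lower in every knockout library. DNA replication genes changed less, 5 of 45 lower and 4 higher, but 21 lower and 2 higher after scaling. Before scaling their share lower was near the 12.5% of all genes, and their share higher was under the 27.4%. After scaling 2571 of the 11953 genes were lower and 2220 higher. Gins1, a subunit of the replicative helicase complex, was 31.6, 31.6 and 35.96 TPM and 18.2, 17.3 and 16.9 TPM (-0.88 ± 0.10, adjusted p = 2.05e-06). Replication-dependent histone genes had 54 of 66 lower and 2 higher (56 and 1 after scaling), with a median of -0.80. Together the histone genes took 7.91%, 7.44% and 6.03% of the TPM in controls and 5.29%, 3.997% and 3.81% in knockout, without overlap.

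Many cytosolic ribosomal protein genes fell, and many genes of oxidative phosphorylation rose. Cytosolic ribosomal proteins had 40 of 82 lower and 3 higher (64 and 2 after scaling), with a median of -0.26. Rpsa was 1292, 1316 and 1141 TPM in controls and 680.2, 690.2 and 682 TPM in knockout (-0.87 ± 0.10, adjusted p = 1.8e-06) and Rps4x 2036, 1949 and 1839.8 TPM and 1063, 984 and 1001 TPM (-0.93 ± 0.11, adjusted p = 3.86e-06). Rpl26, at 237, 231 and 348 TPM and 572, 651 and 691 TPM, went the other way (1.25 ± 0.19, adjusted p = 5.17e-05). Ribosomal protein genes have many processed copies in the genome, so their TPM is uncertain. Nuclear-encoded genes of oxidative phosphorylation had 48 of 75 higher and 2 lower (34 and 4 after scaling), and mitochondrial ribosomal proteins 39 of 77 and 3 (29 and 6). Ndufb10, a complex I subunit, was 140.2, 149 and 173 TPM and 249, 268 and 261 TPM (0.75 ± 0.10, adjusted p = 1.17e-05). Mrps28, in contrast, was 49.9, 49.2 and 62.7 TPM and 27.2, 26.2 and 24.1 TPM (-1.02 ± 0.12, adjusted p = 2.67e-06). Nucleolar and ribosome biogenesis genes had 22 of 37 higher and 0 lower in limma (14 and 2 after scaling, and 1 lower at an unadjusted p of 0.05), 10 higher without control replicate 1. In these lists averaging the near-identical replicates gave 19 lower cytosolic ribosomal genes and 26 oxidative phosphorylation and 8 nucleolar genes higher.

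Most glycolysis genes fell and most antioxidant genes rose, while fewer sterol and amino acid genes passed. Of 26 glycolysis and hypoxia genes 16 fell and 1 rose (19 and 1 after scaling), with a median of -0.79. The 16 were 6 without control replicate 1, 7 without control replicate 2, 8 without knockout replicate 2 and 9 without knockout replicate 3. Aldoa, aldolase A, was 3147, 3050.1 and 2183 TPM in controls and 1783, 1505 and 1463 TPM in knockout (-0.80, adjusted p = 0.00661), and Pfkl, a phosphofructokinase, 115, 113 and 77.7 TPM and 57.3, 31.1 and 29.5 TPM (-1.39, adjusted p = 0.00101). Control replicate 3 was nearest to the knockout for both. Cholesterol and fatty acid synthesis had 8 of 30 lower and 2 higher (14 and 2 after scaling), and 5 lower without control replicate 2, control replicate 3, knockout replicate 1 or knockout replicate 3. Fdps, of the mevalonate pathway, was 209, 230.3 and 276 TPM and 84.9, 91.9 and 91.5 TPM (-1.40 ± 0.26, adjusted p = 0.000304). Among ATF4 targets and tRNA synthetases 7 of 27 fell and 2 rose (12 and 1 after scaling), with Asns, asparagine synthetase, at 123, 129 and 119 TPM and 62.5, 33.8 and 34.6 TPM (-1.54, adjusted p = 0.000863). NRF2 antioxidant genes had 13 of 21 higher and 2 lower (10 and 3 after scaling). Prdx1, a peroxiredoxin, was 1168, 1115 and 1489.8 TPM and 2049.8, 3127 and 3301 TPM (1.15 ± 0.14, adjusted p = 3.56e-06). Ftl1, ferritin light chain, took the highest TPM of the named genes, 26001, 27986 and 37957 TPM and 57196, 68200.1 and 68759 TPM (1.09 ± 0.17, adjusted p = 4.75e-05). Iron handling and metallothionein genes had 8 of 16 higher and 1 lower (5 and 1 after scaling), and 5 higher without knockout replicate 2 or knockout replicate 3. Slc40a1, the iron exporter ferroportin, was 35.9, 38.1 and 44.3 TPM and 79.9, 92.7 and 82.3 TPM (1.09, adjusted p = 0.00101).

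Several of these counts depended on the libraries that stood apart. With control replicates 1 and 2 averaged and knockout replicates 2 and 3 averaged, the p53 targets that rose numbered 17, the mitosis genes that fell 16, the histone genes that fell 31 and the glycolysis genes that fell 3. Without both of knockout replicates 2 and 3 these numbers were 8, 4, 11 and 1, and without control replicates 1 and 2 and knockout replicate 1 they were 16, 14, 20 and 2. In the same order of alternatives, 8, 4 and 5 TFIID subunits, 5, 2 and 3 other general transcription factors, 11, 9 and 11 genes of the chemokine list, 7, 5 and 7 dendritic cell genes and 10, 6 and 10 mast cell genes rose. These alternatives were chosen after seeing the data.

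**Figure D4:**
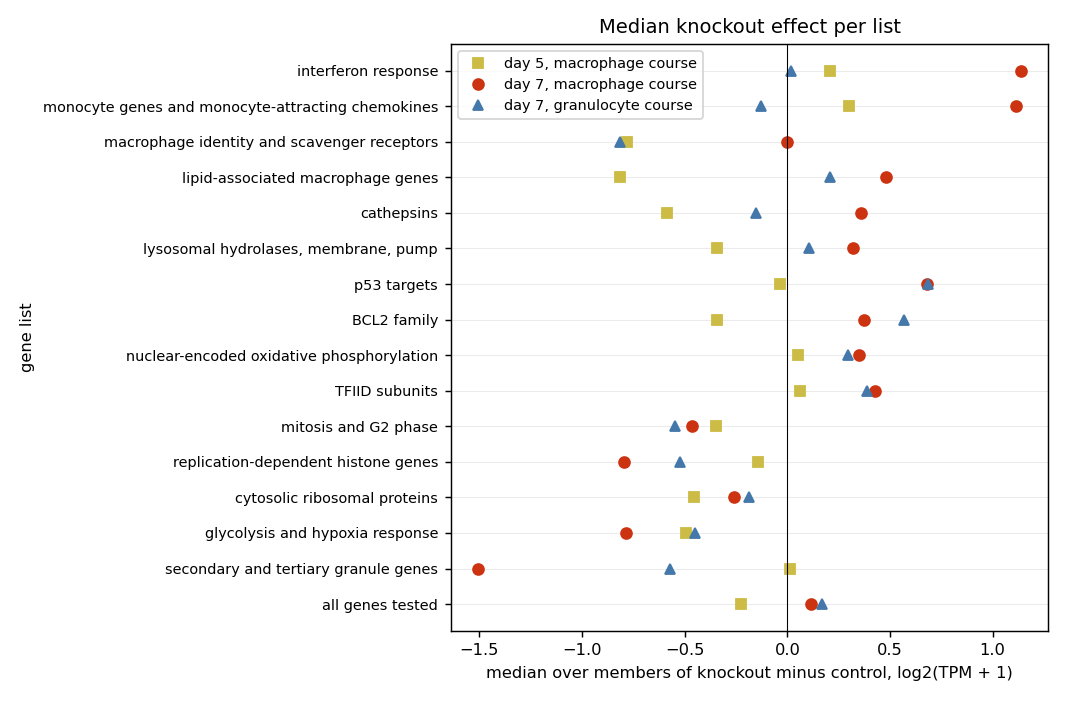
Median over the tested members of each list of the log2 difference between knockout and control at day 5 (squares) and day 7 (circles) of the macrophage course and at day 7 of the granulocyte course (triangles). The interferon list stands at 1.14 at day 7 of the macrophage course and near 0 in the granulocyte course. Several lists, among them the lysosomal and cathepsin lists, change sign between days 5 and 7. So does the median of all genes, from -0.23 to 0.12.

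The knockout effect at day 7 differed from that at day 5 of the same course. At day 5, after GM-CSF with M-CSF, 5143 genes passed (43%), of which 611 were higher (5.11%) and 4532 lower (37.9%) in knockout, with a median of -0.23. The difference of the 2 effects passed for 4261 genes (35.6%), 4096 with a higher value at day 7 (34.3%) and 165 with a lower one (1.38%). The median of this difference over all genes was 0.34, and median-of-ratios scaling, which brought it to -0.01, gave 468 higher and 478 lower. In TPM as deposited, the 4261 genes were 2697 without control replicate 1, 2676 without knockout replicate 2 and 2627 without knockout replicate 3 of day 7. The genes named next as differing passed with and without scaling. Adgre1 had a log2 knockout effect of -1.66 at day 5 and -0.05 at day 7, a difference of 1.61 ± 0.22 (adjusted p = 9.29e-05). Mertk went from -1.04 to 1.30, a difference of 2.34 ± 0.24 (adjusted p = 5.1e-06). Ctsl went from -1.26 to 1.21 (2.47 ± 0.30, adjusted p = 2.57e-05), and Ctsb from -0.56 to 1.001 (1.56). In TPM, Adgre1 was 171, 135 and 134 in day 5 controls and 44.8, 44.5 and 46.6 in day 5 knockout, below all day 7 values in both genotypes.

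Lysosomal genes were lower in 23 of 45 cases and higher in 1 at day 5, and 37 of the 45 had a higher knockout effect at day 7, 6 of them after scaling. Macrophage identity genes at day 5 were 15 of 26 lower and 1 higher, with 15 higher and 2 lower effects at day 7 (9 and 2 after scaling). Interferon genes had 12 of 40 higher and 4 lower at day 5, and 34 of 40 a higher effect at day 7 (21 after scaling). Ifit3 went from 0.31 to 3.29, a difference of 2.98 ± 0.26 (adjusted p = 8.45e-07). Ednrb, an endothelin receptor, went from -0.54 to 2.31 (2.84), and Atp6v0d2, a subunit of the lysosomal proton pump, from -1.81 to 0.999 (2.81). Ccl12 went from 0.70 to 4.21 (3.51) and Ccl8, another monocyte-attracting chemokine, from -1.44 to 1.83 (3.27). In the opposite direction Cd177 went from 0.21 to -2.97 (-3.17 ± 0.75, adjusted p = 0.00501), and Clec10a, a lectin receptor, from 0.34 to -1.85 (-2.20). F7, Asprv1, Hexim1 and Taf13 differed by -0.24, 0.10, -0.03 and 0.26 between the days, none of which passed (adjusted p from 0.28 to 0.90).

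The interferon rise set the macrophage course apart from the granulocyte course on the same day. The granulocyte cultures came from the same expanded cells and were grown with G-CSF, at first together with SCF and IL-3. In them 5198 of 11269 genes passed (46.1%), of which 3739 were higher (33.2%) and 1459 lower (12.9%) in knockout. The difference of the 2 knockout effects passed for 367 genes (3.26%), 186 with a higher (1.65%) and 181 with a lower value (1.61%) in the macrophage course. With the replicate number of the courses as a block 1638 genes passed. Same-numbered libraries of the courses were not always the most alike. Deviations of macrophage-course control replicates 1 and 2 correlated at 0.415 and 0.428 with the other number, and at 0.376 and 0.274 with their own. Without macrophage-course control replicate 1 or 2 or knockout replicate 2 or 3, or granulocyte-course control replicate 1 or 2 or knockout replicate 2 or 3, the count was 108 to 173, without macrophage-course control replicate 3 it was 585 and without granulocyte-course knockout replicate 1 it was 959. With the near-identical replicates averaged in both courses 10 passed, among them Rsad2, Ifit1, Ifit2 and Oas3. Of 39 interferon genes 26 had a higher knockout effect in the macrophage course and 0 a lower one (35 and 0 with the block, 4 and 0 of 37 averaged).

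**Figure D5:**
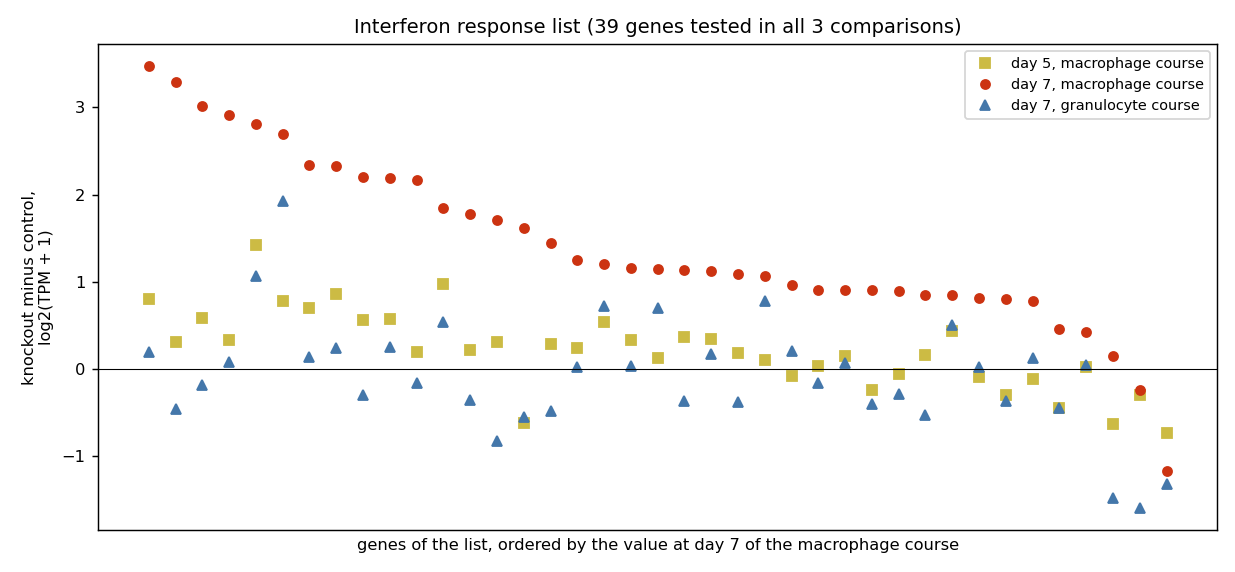
Log2 difference between knockout and control for each of 39 interferon genes, ordered by its value at day 7 of the macrophage course (circles), with day 5 of that course (squares) and day 7 of the granulocyte course (triangles). Circles lie above both other points for most genes, and the triangles have a median of 0.02.

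Rsad2 was 1.9, 2.68 and 2.18 TPM in granulocyte-course controls and 2.53, 3.13 and 2.48 TPM in knockout, an effect of 0.19 against 3.47 in the macrophage course (difference 3.28 ± 0.31, adjusted p = 0.000419). Ifit3 was 0.52, 0.6 and 2.66 TPM and 1.09, 0.14 and 0.46 TPM there (difference 3.74 ± 0.50, adjusted p = 0.00358), and Ifit1 0.7, 0.95 and 1.66 TPM and 1.1, 0.59 and 0.82 TPM (3.19 ± 0.36, adjusted p = 0.00121). In granulocyte cultures the genotypes overlapped for all 3 genes. Apoe had effects of 1.28 in the macrophage and -2.58 in the granulocyte course (3.85, adjusted p = 0.00562), Aif1, a macrophage actin-binding protein, 1.26 and -2.14 (3.40, adjusted p = 0.00162) and Csf1r 0.22 and -0.96 (1.18, adjusted p = 0.0148). Lyz2 had 0.90 and -0.48 (1.38, adjusted p = 0.0199). Lower effects in the macrophage course were found for Lrg1, an acute phase glycoprotein (-2.77 and 0.25, difference -3.03, adjusted p = 0.0125), for Ffar2, a receptor of short-chain fatty acids (-1.71 and 1.20, -2.91) and for Pecam1, an adhesion protein (-1.54 and 1.06, -2.59).

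Other large changes are given side by side for both courses. The difference of the effects passed for 0 of 32 p53 targets, 16 TFIID subunits, 40 mitosis genes and 16 secondary and tertiary granule genes in limma. With the replicate block it passed for 11 p53 targets, 6 with a higher and 5 with a lower value, and for 7 granule genes with a lower value, and again for 0 TFIID and mitosis genes. Unadjusted p under 0.05 was reached by 7 p53 targets, 1 TFIID subunits, 1 mitosis genes and 5 granule genes without the block. Cdkn1a had effects of 1.34 and 1.77, Taf13 of 1.42 and 1.17, and Hexim1 of 1.07 and 1.24. The chemokine effects were 2.85 and 3.93 for Ccl2, 4.21 and 3.82 for Ccl12 and 2.89 and 2.53 for Ccl6. F7 had -3.42 and -3.34, and Camp -5.67 and -5.25. A difference that misses the threshold does not show equal effects.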

How the data were processed

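RNA-seq of cultured mouse HSPC was deposited as TPM per gene, which the authors made with RSEM on mm10, per the submitters' processing notes. Those notes also name DESeq2 1.38.3 among the tools the authors used, with no role given, and the labels' protocols give a stranded library kit. The reads behind a TPM value are unknown, so no depth is given and precision rests on the 3 libraries per group. The 12 columns shared by the macrophage and granulocyte tables were equal.

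Values were taken as log2(TPM + 1). Genes with at least 1 TPM in 3 or more fitted libraries were tested with limma 3.58.1 in R 4.3.3 (trend, Benjamini-Hochberg adjusted p under 0.05), with 1 coefficient per group over the 24 libraries of the macrophage course, or the 12 of day 7 for the difference between the courses. Median-of-ratios scaling used size factors of 0.809 to 1.15. Scripts were tested on simulated data. The 54 gene lists and the members were chosen with earlier results of these data known. Named genes were Taf1 and the TFIID subunits, the largest changes and differences, the members of each list with the smallest p and highest TPM, and fixed genes. The interferon regulators Stat2, Irf9, Ifih1 and Ddx58, the markers Ccr2, Zbtb46, Cd209a and Gp9, and Hbb-bs, Ifit2, Oas3, Samd9l, Ifi27l2a, Vcan and Ms4a4c were named after their values were seen. Some genes that the rule names are not reported here. Promoters came from RefSeq, with 9120 of the 11953 tested genes matched by symbol. Replicate numbers were used as a block between the courses, which split a common culture. Correlations of same-numbered deviations were 0.274 to 0.519 in knockout and 0.274 to 0.641 in controls. Those of unlike numbers reached 0.354 in knockout and 0.428 in controls, so the pairing by number is uncertain. Alternatives left out each library and changed the pseudocount, filter, scaling, model and block.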

Additional observations from a re-analysis of the deposited data

Results flagged for a closer look

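The knockout effect, meaning the log2(TPM + 1) difference between knockout and control, differed between day 7 and day 5 of the macrophage course for 4261 genes and between the macrophage and granulocyte courses at day 7 for 367 genes, by limma's test of the difference itself. Of the 4261 genes, 4096 had a higher value at day 7, with a median difference over all genes of 0.34. Median-of-ratios scaling brought that median to -0.01 and gave far fewer genes, as stated above. Between the days, differences with a higher value at day 7 were 5.54 for Amd2, a copy of the S-adenosylmethionine decarboxylase gene whose reads may be shared with its paralog, 3.51 for Ccl12, 3.27 for Ccl8, 2.98 for Ifit3, 2.84 for Ednrb, 2.81 for Atp6v0d2, 2.47 for Ctsl, 2.34 for Mertk, 1.61 for Adgre1 and 1.56 for Ctsb. Lower values at day 7 were -3.17 for Cd177, -2.20 for Clec10a and -2.04 for Olfm4, a granule glycoprotein. With the replicate number as a block Olfm4 did not pass in limma (adjusted p = 0.0551). The 2 days are separate libraries of each genotype and share no control sample.

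Between the courses, the largest difference named was that of Saa3, a serum amyloid A protein made by macrophages, at 6.81. Saa3 was 8.1, 5.04 and 9.17 TPM in macrophage-course controls and 7.01, 11.7 and 14.2 TPM in knockout, which did not pass (0.49, adjusted p = 0.172) except without knockout replicate 1 (0.76), while its effect in the granulocyte course was -6.32. Differences of 3.85 for Apoe, 3.74 for Ifit3, 3.40 for Aif1, 3.28 for Rsad2, 3.19 for Ifit1, 2.96 for Nptx1, 1.38 for Lyz2 and 1.18 for Csf1r also had the higher value in the macrophage course. Lower values were -3.03 for Lrg1, -2.91 for Ffar2, -2.59 for Pecam1, -2.33 for Prnp, the prion protein gene, and -2.25 for Casp6, a caspase. Prnp and Casp6 had effects of 2.78 and 2.02 in the granulocyte course and 0.45 and -0.24 in the macrophage course, where neither passed. With the near-identical replicates averaged in both courses, an alternative chosen after seeing the data, Saa3, Rsad2 and Ifit1 passed among these genes.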

How the results depend on the processing

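Of 129 named genes examined under the alternatives, 114 kept their direction and side of the threshold. This held under every alternative that left no library out and used no block, and the cause of the changes was not tested. Beside 1495 lower genes in the day 7 comparison, scaling by the median of ratios gave 2574 and by the median of all genes 2504. Alternatives chosen after seeing the data gave 2362 genes (1484 higher, 878 lower) with near-identical replicates averaged, 1298 (689 and 609) without both of knockout replicates 2 and 3, and 1812 (1142 and 670) without control replicates 1 and 2 and knockout replicate 1. For the difference between the days, the 2 scalings gave 946 (468 higher, 478 lower) and 996 (351 and 645), the groups alone 101 lower. For the difference between the courses they gave 668 (355 and 313) and 662 (349 and 313), a pseudocount of 0.1 TPM 100 lower, a filter of 5 TPM 227 (90 lower), removal of short structural RNA and histone genes 316 lower, the groups alone 105 lower, and averaging 10 (9 and 1).
Leaving out 1 library at a time gave 3356 to 5112 genes (2193 to 3637 higher, 1107 to 1475 lower) at day 7, 2627 to 5007 (2534 to 4753 and 89 to 254) for the days and 108 to 959 (72 to 277 and 36 to 682) for the courses.
With the replicate number as a block, 4751 genes passed at day 7 (3273 and 1478), 2453 for the days (2373 and 80) and 1638 for the courses (764 and 874). The number did not pair knockout with control (correlations of 0.412, -0.293 and 0.26) nor the control libraries of days 7 and 5 (0.0925, 0.013 and -0.000114), although the knockout libraries of these days correlated at 0.441, 0.206 and 0.177. Of the genes named as differing between the days, Olfm4 alone did not pass with the block (adjusted p = 0.0551).
Signs that reversed belonged to genes that had not passed. Median-of-ratios scaling gave B2m -0.051, Ifitm3 -0.014, Irf8 -0.122 and Spi1 -0.060, the removal of short structural RNA and histone genes B2m -0.0081, Irf8 -0.081 and Spi1 -0.018, and the median of all genes B2m -0.018, Irf8 -0.092 and Spi1 -0.028. Over the libraries left out singly, Adgre1 ran from -0.137 to 0.10, Ifi27l2a from -0.459 to 0.13 and Irf8 from -0.094 to 0.10. Averaging gave Mpo 0.23. Without both of knockout replicates 2 and 3, Adgre1 was 0.10, B2m -0.031, Saa3 -0.040, Gp9 0.26, Ifi27l2a 0.21 and Mpo 0.68. Without control replicates 1 and 2 and knockout replicate 1, Csf1r was -0.042, Mpo 0.48 and S100a8 0.0024.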

Other observations

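Some genes of MHC class I presentation, Toll-like receptor signalling and alternative activation rose. Of all genes 27.4% were higher and 12.5% lower, and after scaling 2220 of 11953 were higher. Of 13 MHC class I genes 5 rose and 0 fell in limma (5 and 0 after scaling, and 0 lower at an unadjusted p of 0.05). H2-D1, a classical class I heavy chain, was 906, 967 and 1098 TPM in controls and 1381, 1572 and 1532 TPM in knockout (0.60 ± 0.14, adjusted p = 0.00184), with no overlap. Tapbp, the peptide-loading protein tapasin, was 72.7, 73.5 and 67.3 TPM and 83.3, 107 and 104 TPM (0.45, adjusted p = 0.000694). B2m, the light chain, was 1926, 1749.6 and 1809.5 TPM and 1788, 2099 and 2037 TPM and did not pass (adjusted p = 0.368). Toll-like receptors and their adaptors had 8 of 20 higher and 2 lower, and 5 higher without control replicate 1 or knockout replicate 2. After scaling 3 were higher and 3 lower, a smaller share higher than among all genes. Unc93b1, which carries nucleic acid sensing Toll-like receptors to endosomes, was 118, 128 and 141 TPM and 194, 202 and 185 TPM (0.59 ± 0.10, adjusted p = 0.000183). Il4ra, the interleukin-4 receptor chain of the alternative activation list, was 27.9, 28.2 and 32.8 TPM and 41.2, 56.6 and 55.7 TPM (0.76, adjusted p = 0.00018), above every control. In that list 6 of 16 rose and 2 fell (6 and 2 after scaling), with log2 differences from -4.15 to 3.97. Ccl17, Ccl22 and Mrc1, given above, were also members of it. With the near-identical replicates averaged, without both of knockout replicates 2 and 3, and without control replicates 1 and 2 and knockout replicate 1, the numbers that rose were 4, 2 and 2 for MHC class I, 3, 2 and 0 for Toll-like receptors and 6, 5 and 4 for alternative activation.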
